A study of Mus musculus with 12 samples.

Results

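Aquaporins are the membrane channels through which water, and in some members glycerol and other small solutes, crosses cells. Aqp1, Aqp2, Aqp3, Aqp4, Aqp5, Aqp6, Aqp7, Aqp8, Aqp9 and Aqp11 were taken by gene symbol, each as the longest RefSeq transcript interval of the gene, introns included. All 10 had an interval, among 23870 genes with a symbol in the files. They were chosen by name and not by any measured value.

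The cells were mpkCCD clone 11, a transformed mouse line of kidney collecting duct principal cells, at passages 6 to 10. One group received dDAVP at 0.1 nM throughout growth and the other its vehicle, and both were harvested 24 h after serum was removed. dDAVP is a vasopressin analog selective for the V2 receptor. Chromatin was precipitated with a control IgG antibody in 3 experiments per group, and these 6 libraries were used here. Libraries from the same study made with an RNA polymerase II antibody, its measure of transcription, were not analysed here.

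In the collecting duct, vasopressin acts through the V2 receptor, cyclic AMP and protein kinase A. It moves the Aqp2 channel from vesicles to the apical membrane and raises transcription of the Aqp2 gene, while Aqp3 and Aqp4 let water leave through the basolateral membrane. A control IgG has no chosen target, so its reads sample chromatin fragments at large and do not measure how much a gene is transcribed. The question here was how much of this background lay over the aquaporin genes, and whether it differed between dDAVP and vehicle.

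The background was thin over these short genes, at 12 to 688 reads per gene and library. dDAVP experiment 3 stood apart from the other 5 libraries, with more reads over intervals rich in G and C bases, and the aquaporin genes range widely in that content. No aquaporin differed between dDAVP and vehicle by edgeR's quasi-likelihood test after Benjamini-Hochberg adjustment, where all adjusted p were between 0.619 and 0.897. In 8 of 10 the fitted ratio was above 0, beside 50.6% of all genes, at a median log2 ratio of 0.87. That median was 0.26 without dDAVP experiment 3 and 0.11 with a correction for GC content.

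Total reads over all intervals ranged from 10588927 to 19748658 per library, and from 6874276 to 12835455 over 1 interval per gene. Density is given below as RPKM, the usual count of reads per kb of interval scaled to the library's reads over 1 interval per gene. Experiments 1 and 2 of a group agreed within sampling noise across genes, with chi-square over degrees of freedom of 1.02 for dDAVP and 1.01 for vehicle. Each pair was therefore counted as 1 sample, and the mean ± SD of a group has n = 2. By the same measure vehicle experiment 3 also differed from vehicle experiments 1 and 2, at 5.02 and 5.1. dDAVP experiment 3 differed more, at 85.26 to 148 against the other 5 libraries. With 2 samples per group an exact two-sided permutation test cannot give a p under 0.333. Experiments are taken as replicates from their labels, which do not say that they came from separate cultures, so p-values reflect only how far these samples differ, and that spread may be technical. No source used here says whether duplicate reads were removed, so the intervals given for read counts cover counting error only.

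Because the GC content of an interval accompanied its reads in dDAVP experiment 3, stretches of 4 aquaporin introns show what these contents look like. Each is 150 bases, 5′ to 3′ on the strand of its gene, lies outside annotated repeats, and has the GC content closest to that of its whole interval. The letters are from the RefSeq copy of the mouse reference GRCm38.p6 (mm10), with G and C in capitals. The Aqp5 stretch is in intron 2 at chr15:99592956-99593105 and holds 86 G or C bases. The Aqp2 stretch is in intron 1 at chr15:99579635-99579784 with 83, the Aqp6 stretch in intron 1 at chr15:99601801-99601950 with 83, and the Aqp9 stretch in intron 5 at chr9:71112665-71112814 on the minus strand with 68.
Aqp5: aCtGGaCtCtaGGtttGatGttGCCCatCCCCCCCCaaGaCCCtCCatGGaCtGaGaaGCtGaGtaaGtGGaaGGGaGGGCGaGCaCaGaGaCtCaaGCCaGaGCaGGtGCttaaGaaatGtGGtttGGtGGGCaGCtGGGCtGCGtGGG
Aqp2: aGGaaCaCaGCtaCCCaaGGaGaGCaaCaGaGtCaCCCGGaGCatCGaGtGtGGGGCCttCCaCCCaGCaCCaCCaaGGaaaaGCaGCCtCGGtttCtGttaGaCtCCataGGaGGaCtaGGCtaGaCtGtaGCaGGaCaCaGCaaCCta
Aqp6: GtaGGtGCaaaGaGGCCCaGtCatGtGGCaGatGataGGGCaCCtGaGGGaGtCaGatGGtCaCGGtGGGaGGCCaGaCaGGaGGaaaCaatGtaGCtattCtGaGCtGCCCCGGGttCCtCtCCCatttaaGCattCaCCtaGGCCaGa
Aqp9: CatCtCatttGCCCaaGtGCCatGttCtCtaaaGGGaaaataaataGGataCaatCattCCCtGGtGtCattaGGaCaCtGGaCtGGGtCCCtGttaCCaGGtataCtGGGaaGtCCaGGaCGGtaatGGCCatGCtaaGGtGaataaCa

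Aqp2, the vasopressin-regulated apical channel, lies on chromosome 15 from 99579056 to 99584545 on the plus strand (mm10). Its interval is 5.49 kb long with 4 exons, which make up 25.8% of it, and has 55.2% GC. It held 29, 38 and 129 reads in dDAVP experiments 1, 2 and 3 and 29, 18 and 41 reads in vehicle experiments 1, 2 and 3. Its density was 0.607, 0.835 and 2.84 RPKM with dDAVP and 0.727, 0.477 and 0.582 RPKM with vehicle. One library, dDAVP experiment 3, was far above the rest, and without it the groups overlapped. The group means were 1.78 ± 1.5 RPKM with dDAVP and 0.592 ± 0.0144 RPKM with vehicle (SD, n = 2). The fitted log2 ratio was 1.26 (SE 0.675, 95% interval -0.42 to 2.93, edgeR adjusted p = 0.619), so the difference did not exceed the spread between samples. It was 0.22 (SE 0.388) without dDAVP experiment 3 and 0.01 (SE 0.259) with the GC correction.

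Aqp3, a basolateral channel that also passes glycerol, lies on chromosome 4 from 41092724 to 41098183 on the minus strand, at 53.6% GC. Over all libraries together it held the fewest reads of the 10 genes, at 23, 24 and 68 with dDAVP and 12, 18 and 18 with vehicle. In dDAVP experiment 2 Aqp5 and Aqp6 held fewer, at 22 and 23, as did Aqp6 in dDAVP experiment 3, at 67. The density of Aqp3 was 0.484, 0.530 and 1.51 RPKM with dDAVP and 0.303, 0.480 and 0.257 RPKM with vehicle. Every dDAVP library was denser than every vehicle library, although dDAVP experiment 1 and vehicle experiment 2 differed by less than counting error. The log2 ratio was 1.33 (SE 0.685, 95% interval -0.36 to 3.03, edgeR adjusted p = 0.619), the highest of the 10. It was 0.59 without dDAVP experiment 3 and 0.30 with the GC correction.

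Aqp4, a basolateral channel of the collecting duct that is also abundant in brain astrocytes, lies on chromosome 18 from 15389394 to 15403684 on the minus strand. It had the lowest GC content of the 10, at 42.1%. Its density was 0.652, 0.870 and 0.957 RPKM with dDAVP and 0.742, 0.763 and 0.796 RPKM with vehicle. The groups overlapped, and dDAVP experiment 3 was the highest library but not far from the rest. The log2 ratio was -0.09 (SE 0.386, 95% interval -1.04 to 0.87, edgeR adjusted p = 0.897). It was 0.39 (SE 0.261) with the GC correction, on the other side of 0.

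Aqp5, the apical channel of salivary, lacrimal and airway glands, lies 6.48 kb beyond Aqp2 on chromosome 15, from 99591028 to 99594829 on the plus strand. It is the shortest of the 10 intervals, at 3.80 kb, and the richest in GC, at 57.2%. Its density was 0.817, 0.698 and 4.11 RPKM with dDAVP and 1.2, 1.19 and 0.574 RPKM with vehicle. The value in dDAVP experiment 3 was the highest of any aquaporin in any library. The other dDAVP libraries lay between vehicle experiment 3 and vehicle experiments 1 and 2. The log2 ratio was 1.13 (SE 0.819, 95% interval -0.90 to 3.15, edgeR adjusted p = 0.619). It was -0.28 (SE 0.413) without dDAVP experiment 3 and -0.31 (SE 0.319) with the GC correction, so its direction turned under both.

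Aqp6, an intracellular channel of collecting duct intercalated cells that conducts anions, follows 6.57 kb beyond Aqp5, from 99601400 to 99605477 on the plus strand. Its GC content of 55.0% is close to that of Aqp2. Its density was 0.874, 0.681 and 1.99 RPKM with dDAVP and 0.574, 0.820 and 0.516 RPKM with vehicle. dDAVP experiment 3 was again the highest library, and the remaining 5 overlapped. The log2 ratio was 0.90 (SE 0.616, edgeR adjusted p = 0.619). It was 0.31 without dDAVP experiment 3 and -0.19 with the GC correction.

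Aqp7 and Aqp9 pass glycerol as well as water, Aqp7 in adipose tissue and the proximal tubule and Aqp9 in liver. Aqp7 lies 44.6 kb from Aqp3 on chromosome 4, from 41033074 to 41048136 on the minus strand, at 49.1% GC. Its density was 0.740, 0.833 and 1.66 RPKM with dDAVP and 0.603, 0.637 and 0.574 RPKM with vehicle. All 3 dDAVP libraries were above all 3 vehicle libraries, with the log2 ratio at 0.75 (SE 0.432, edgeR adjusted p = 0.619) and at 0.34 without dDAVP experiment 3. Aqp9 lies on chromosome 9 from 71110659 to 71163289 on the minus strand, at 45.3% GC, and overlaps a processed pseudogene. At 52.63 kb it is the longest of the 10 and the most deeply sampled, with 378 to 688 reads per library. Its density was 1.11, 1.11 and 1.08 RPKM with dDAVP and 1.07, 1.04 and 1.02 RPKM with vehicle. These 6 values were the closest together of any aquaporin. The dDAVP libraries were all higher, by a ratio of means of only 1.06, while the fitted log2 ratio, scaled by TMM, was -0.13 (SE 0.321, 95% interval -0.93 to 0.66, edgeR adjusted p = 0.81).

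Aqp1, the constitutive channel of the proximal tubule and thin descending limb, lies on chromosome 6 from 55336299 to 55348555 on the plus strand, at 53% GC. Its density was 1.08, 1.03 and 2.95 RPKM with dDAVP and 1.1, 1.01 and 0.756 RPKM with vehicle. Outside dDAVP experiment 3 the groups overlapped. The log2 ratio was 0.85 (SE 0.503, edgeR adjusted p = 0.619), 0.17 without dDAVP experiment 3 and -0.13 with the GC correction.

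Aqp8, a channel of liver, pancreas and colon, lies on chromosome 7 from 123462294 to 123468003 on the plus strand, at 50.1% GC. Its density was 0.745, 0.655 and 1.84 RPKM with dDAVP and 0.555, 0.535 and 0.382 RPKM with vehicle. Aqp11, an intracellular member in the endoplasmic reticulum of the proximal tubule, lies on the same chromosome from 97726379 to 97738247 on the minus strand, at 45.6% GC. Its density was 0.620, 0.691 and 0.898 RPKM with dDAVP and 0.441, 0.515 and 0.545 RPKM with vehicle. In both genes all dDAVP libraries were above all vehicle libraries. The log2 ratio was 1.16 (SE 0.606, edgeR adjusted p = 0.619) for Aqp8 and 0.36 (SE 0.441, edgeR adjusted p = 0.661) for Aqp11. Aqp8 moved to 0.54 without dDAVP experiment 3 and to 0.47 with the GC correction. Aqp11 moved least of the genes above 0 when dDAVP experiment 3 was left out, to 0.30, and was also at 0.30 with the GC correction.

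**Figure D1:**
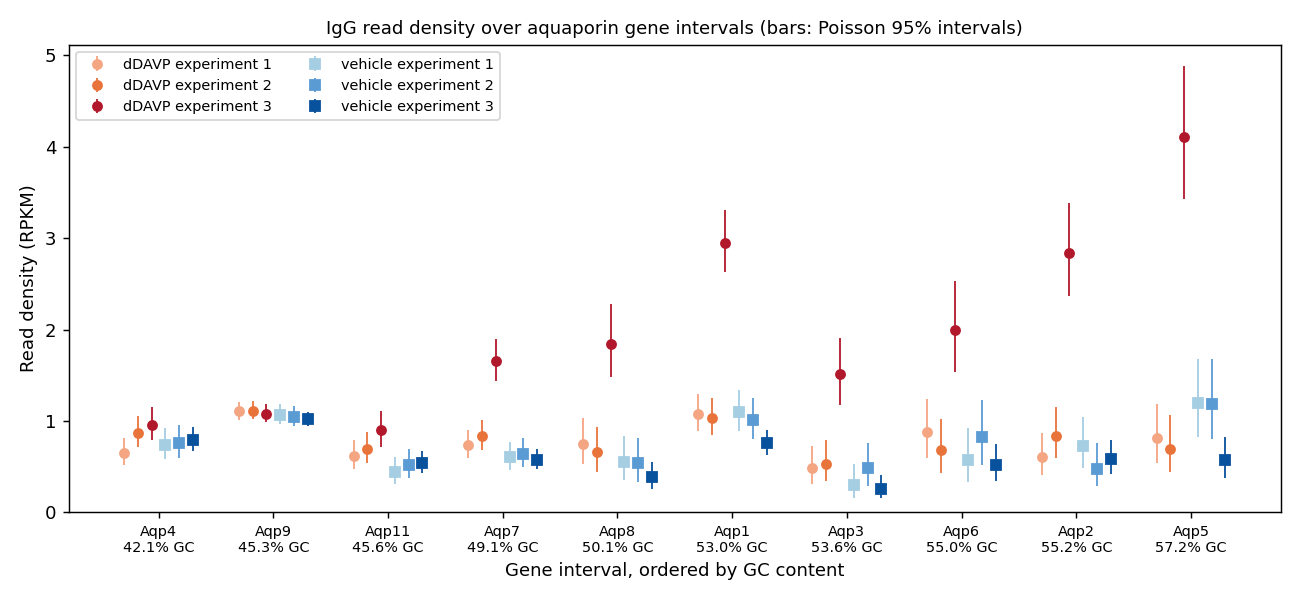
Read density in RPKM over each aquaporin interval in the 6 IgG libraries, with genes ordered by GC content from left to right; circles are dDAVP, squares are vehicle, and bars are Poisson 95% intervals of the reads. dDAVP experiment 3 is close to the other libraries at Aqp4 and Aqp9 and far above them at Aqp5, where it reached 4.11 RPKM.

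With vehicle, the densities fell from Aqp9 at 1.04 ± 0.0266 RPKM to Aqp3 at 0.324 ± 0.0949 RPKM (SD, n = 2). Between them the order was Aqp1, Aqp5, Aqp4, Aqp6, Aqp7, Aqp2, Aqp11 and Aqp8. Each neighbouring pair in that order had overlapping library ranges, so no step between neighbours exceeded their spread. Aqp2, the gene that vasopressin regulates, was in the lower part of the order, at the seventh place.

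Across the 10 genes, edgeR's quasi-likelihood test called 0 after adjustment over 30912 intervals, and 0 at an unadjusted p under 0.05. By DESeq2 the count was 0 on both measures. Of all intervals, edgeR called 0% and gave 0.763% an unadjusted p under 0.05, and DESeq2 called 0% and gave 3.28% one. Of the 10 log2 ratios, 8 were above 0, against 50.6% of all genes in the fit, and their median of 0.87 stood beside 0.01 over all genes. With the GC correction 6 of 10 were above 0, against 48.3% of all genes, at medians of 0.11 and -0.00872. All 3 dDAVP libraries were denser than all 3 vehicle libraries at Aqp3, Aqp7, Aqp8, Aqp9 and Aqp11, 5 of the 10, where the background was 17.7% of genes. That count depended on the scale: it was 3 (Aqp7, Aqp8 and Aqp11) for density over the median gene, beside 11.9% of genes, and 2 (Aqp7 and Aqp8) for density over similar intervals, beside 13.3%. No aquaporin had all dDAVP libraries below all vehicle libraries.

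GC content moved with these ratios. In dDAVP experiment 3, density over the mean of the other 5 libraries was 4.59 at Aqp5, 4.40 at Aqp2, 3.67 at Aqp3, 3.21 at Aqp8 and 2.97 at Aqp1. It was 2.87 at Aqp6, 2.44 at Aqp7, 1.60 at Aqp11 and 1.01 at Aqp9, with Aqp4 between these last 2. The genes under 46% GC, Aqp4, Aqp9 and Aqp11, had the lowest ratios. Among autosomal genes of similar length and a GC content within 3 points, the median ratio was 4.06 for genes like Aqp5, 3.78 for genes like Aqp2 and 1.23 for genes like Aqp9. Every aquaporin was between the 17.9th percentile, where Aqp6 was, and the 86.1st percentile, where Aqp4 was, of its own comparison genes. Aqp2 was at the 75.9th percentile. The part of GC content in the difference between dDAVP and vehicle was not tested apart from the GC-corrected fit.

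**Figure D2:**
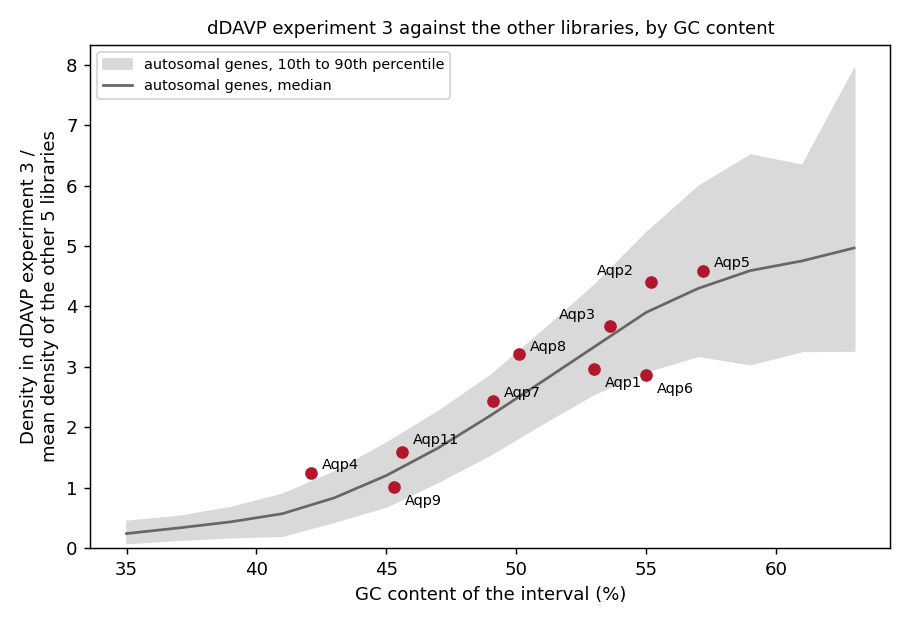
Density in dDAVP experiment 3 divided by the mean density of the other 5 libraries (vertical axis) against the GC content of the interval in percent; points are the 10 aquaporin genes, the line is the median of autosomal genes and the grey band their 10th to 90th percentile. The ratio is lowest at Aqp9, at 1.01, and highest at Aqp5, at 4.59. It mostly rises with GC content, as the line for autosomal genes does. Aqp6, at 2.87, is below the grey band, and Aqp4, the gene lowest in GC content, is above it.

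Left with experiments 1 and 2 alone, dDAVP over vehicle density was 1.2 at Aqp2, beside a median of 1.12 for autosomal genes of similar length and GC content. It was 1.37 at Aqp11 and 1.27 at Aqp7, at the 97.0th and 91.6th percentiles of their comparison genes. Aqp5 was the lowest of the 10, at 0.636 and the 3.65th percentile. In the edgeR fit of these 4 libraries, log2 ratios had an unadjusted p of 0.0163 for Aqp5 (-0.66), 0.0296 for Aqp11 (0.45) and 0.041 for Aqp7 (0.33), with adjusted p of 0.143, 0.191 and 0.224. These 3 of 10 stood beside 20.1% of all intervals with an unadjusted p under 0.05 in that fit. None of the 10 passed after adjustment, and 1321 of 29574 intervals (4.47%) did. Since experiments 1 and 2 of a group differ by no more than sampling noise, that fit holds only the spread of reads and not that of separate samples.

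**Figure D3:**
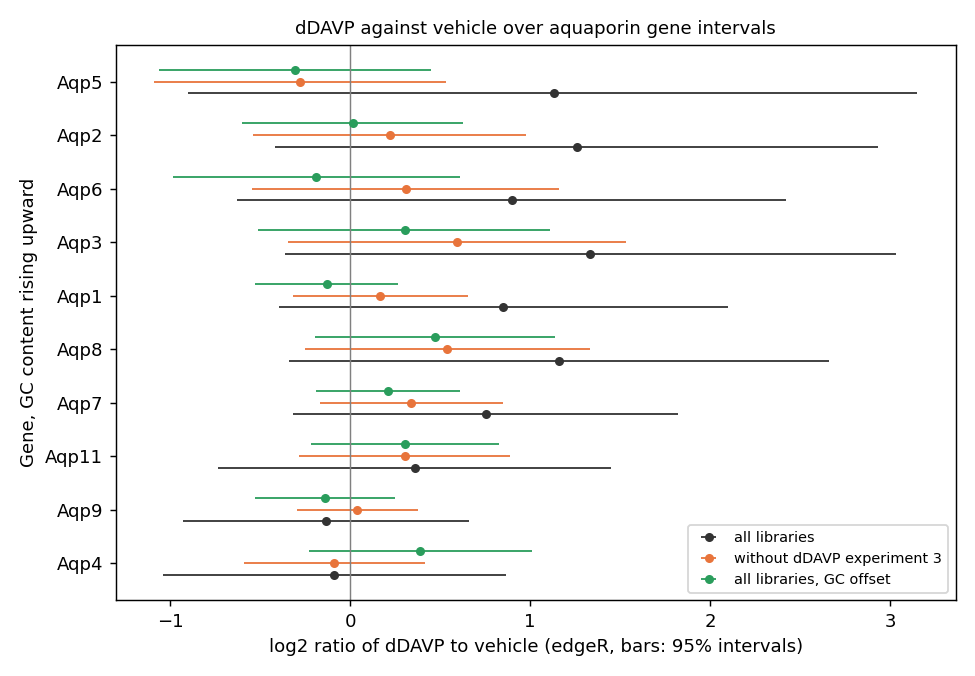
Fitted log2 ratio of dDAVP to vehicle from edgeR for each aquaporin, with GC content rising upward and bars for 95% intervals, from all libraries (black), without dDAVP experiment 3 (orange) and from all libraries with the GC correction (green). Every interval spans 0, and for Aqp2 the ratio is 1.26, 0.22 and 0.01 in the 3 fits.

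Set against genes on the same chromosome of 0.5 to 2 times the length, the median aquaporin stood at 0.906 to 1.30 of the median comparison gene in the 6 libraries. Aqp4, Aqp7 and Aqp9 were above their comparison genes in all 6 libraries, at 1.1 to 1.43, 1.05 to 1.65 and 1.19 to 1.34 times the median. Aqp6 was below in all 6, at 0.589 to 0.843. Aqp2 was at 1.1 in dDAVP experiment 3 and at 0.453 to 0.756 in the other 5 libraries. In vehicle experiment 2, only 1.47% of the 273 comparison genes were below it.

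The choice of comparison genes mattered. Against autosomal genes of similar length and GC content, the median aquaporin was at 0.769 to 0.931 in the 6 libraries. Aqp2 was then at 1.01 ± 0.118 with dDAVP and 0.978 ± 0.155 with vehicle (SD, n = 2), where on its own chromosome it had been at 0.876 ± 0.315 and 0.650 ± 0.0873. Aqp1 was above in all 6 libraries, at 1.21 to 1.42. Aqp3, Aqp7, Aqp8 and Aqp11 were below in all 6, with Aqp3 at 0.413 to 0.657 and Aqp11 at 0.483 to 0.758. Aqp7, above its comparison genes of chromosome 4, was at 0.682 to 1.28 of autosomal genes of similar length and at 0.700 to 0.932 once GC content was matched as well. Matched for both, Aqp4 was at 0.7 to 1.38, Aqp9 at 0.943 to 1.17 and Aqp6 at 0.767 to 1.19. These ranges all span 1.

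Bases with at least 1 read covered 8.24% of the Aqp3 interval in vehicle experiment 1 and 63.5% of the Aqp5 interval in dDAVP experiment 3, the lowest and highest of the 60 values. These shares were set against the share that the same number of 50-base reads would cover if each fell anywhere with equal chance. The median aquaporin was at 0.975 and 0.967 of that even spread in dDAVP experiments 1 and 2 and at 0.974 in vehicle experiment 3. It was at 0.753 and 0.771 in vehicle experiments 1 and 2 and at 0.650 in dDAVP experiment 3. The same 3 libraries were the lower ones over all genes with at least 10 reads in each library, at 0.749, 0.759 and 0.580. Aqp2 was covered over 21.2%, 29.1% and 52.8% with dDAVP and 17.6%, 12.4% and 28.6% with vehicle. In dDAVP experiment 3 that was 0.765 of an even spread. Aqp4 was at 0.489 in that library, the lowest of the 10 genes, with 113 reads over 16.0% of its interval.

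**Figure D4:**
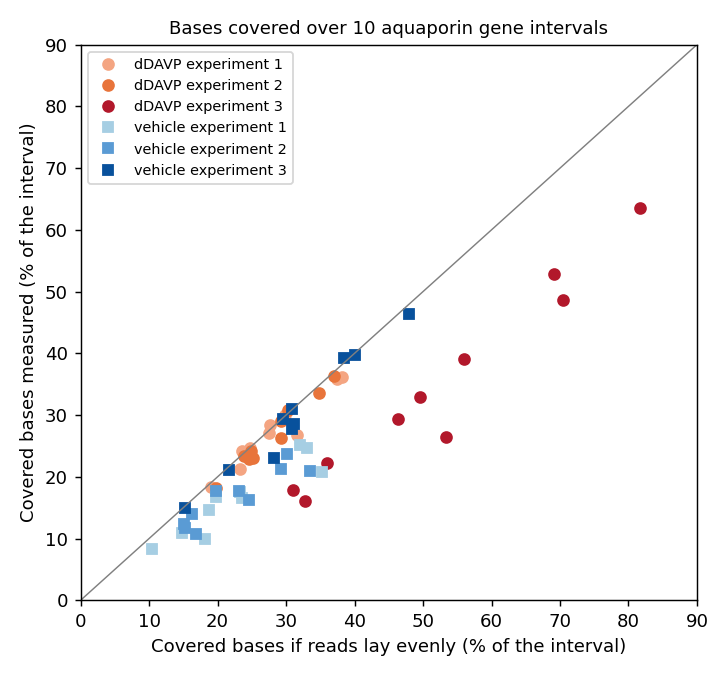
Percent of interval bases with at least 1 read (vertical axis) against the percent expected if the same reads lay evenly (horizontal axis), for the 10 aquaporin genes in each of the 6 libraries; the line marks equality. dDAVP experiment 3 and vehicle experiments 1 and 2 fall below the line, with medians of 0.650, 0.753 and 0.771 of the even spread.

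Aqp2, Aqp5 and Aqp6 stand side by side over 26.4 kb of chromosome 15, from 99579056 to 99605477, all on the plus strand. Within 100 kb are Faim2, an inhibitor of Fas-driven cell death, Racgap1, which acts in cytokinesis, Asic1, an acid-sensing ion channel, and Smarcd1, a subunit of the SWI/SNF remodeler. The median density of the 3 aquaporins was 0.812, 0.702 and 0.986 of the median of these 4 genes with dDAVP, and 0.798, 0.972 and 0.794 with vehicle. The groups overlapped, and the median of the cluster was below that of these flanks in every library. Against the 14 genes within 300 kb it was above in dDAVP experiment 3 alone, at 1.13. The jump in dDAVP experiment 3 was shared with the flanks: its density over the other 5 libraries was 4.24 at Faim2, 3.33 at Smarcd1, 2.75 at Asic1 and 1.37 at Racgap1. Racgap1 has 45.2% GC, and Faim2, Smarcd1 and Asic1 have 53.5%, 52.6% and 51.6%.

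**Figure D5:**
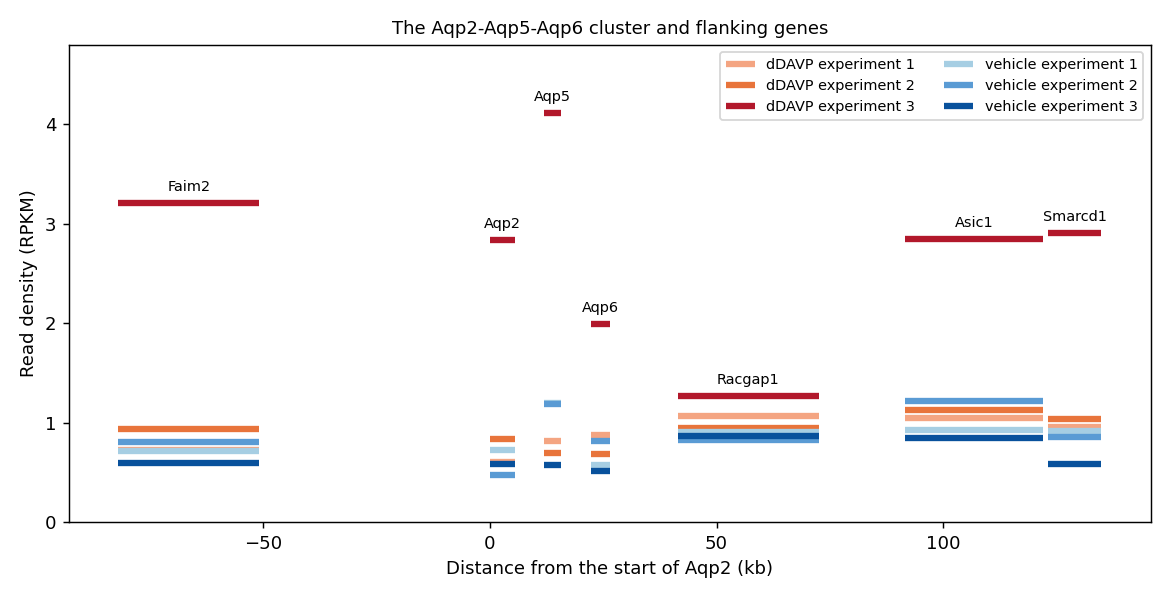
Read density in RPKM of the Aqp2, Aqp5 and Aqp6 intervals and the genes within 100 kb, drawn as bars from start to end against distance in kb from the start of Aqp2, 1 color per library. dDAVP experiment 3 is the top bar at every gene, from 1.27 RPKM at Racgap1 to 4.11 RPKM at Aqp5.

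The genes most like Aqp2 over the 6 libraries, by the smallest root mean square difference in log2 density over the median gene, were Nyap1, Vps18 and Prr36. The differences were 0.150, 0.152 and 0.166 among 17116 genes with at least 20 reads in each library, apart from Aqp2 itself, whose lowest library had 18. Nyap1, a neuronal adaptor of phosphoinositide 3-kinase signaling, had 3.12 RPKM in dDAVP experiment 3 and 0.580 to 0.881 RPKM in the others. Vps18, a subunit of the tethering complex for late endosomes and lysosomes, had 2.56 RPKM and 0.449 to 0.783 RPKM, and Prr36 2.76 RPKM and 0.505 to 0.808 RPKM. Their GC contents were 54.3%, 51.8% and 55.2%, and 182 genes were within 0.3 of Aqp2 by that measure.

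Mip, the lens fiber aquaporin, and Aqp12, a pancreatic member, are also in the files. Mip had 1.29, 1.21 and 3.28 RPKM with dDAVP and 0.876, 0.828 and 0.756 RPKM with vehicle, without overlap. All 3 dDAVP libraries were likewise denser at 17.7% of genes. The log2 ratio of Mip was 1.2 (SE 0.528, edgeR adjusted p = 0.619), and 0.76 (SE 0.237, unadjusted p = 0.0154, adjusted p = 0.987) with the GC correction. In that corrected edgeR fit 266 of 30873 intervals had an unadjusted p under 0.05. Aqp12 had 0.6, 0.590 and 3.06 RPKM with dDAVP and 0.858, 0.833 and 0.499 RPKM with vehicle, at 55.1% GC. Its log2 ratio of 1.11 (SE 0.766) turned to -0.19 with the GC correction.

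A list of 49 genes covered the vasopressin signaling, vesicle trafficking and transcription around Aqp2. edgeR tested 48 of them, since Avpr2, the V2 receptor itself, had too few reads for its filter. DESeq2 tested all 49, with Avpr2 at a log2 ratio of 1.49 (SE 1.44, unadjusted p = 0.3). None was called by either tool with all samples. In the edgeR fit 20 log2 ratios were above 0 and 28 below, and the median was -0.05. There, 1 gene of 48 had an unadjusted p under 0.05, beside 0.763% of all intervals. It was Sipa1, a GTPase-activating protein for Rap, at 1.48 (edgeR unadjusted p = 0.0481, adjusted p = 0.619). DESeq2 gave 2 such genes of 49, beside 3.28% of all intervals, namely Sipa1 and Adcy6, an adenylyl cyclase downstream of the V2 receptor (log2 ratio 1.27, unadjusted p = 0.0265), the latter named after its value was seen. Without experiment 3 of both groups edgeR called 1 of the list, Pde4d, a cyclic AMP phosphodiesterase, at a log2 ratio of only -0.0956 (adjusted p = 0.000536), likewise named after its value was seen. That is 1 of 48 beside 4.47% of all intervals. At an unadjusted edgeR p under 0.05 there were 17 of 48, beside 20.1% of all intervals. That fit holds only the spread of reads. Vamp2, a vesicle SNARE of Aqp2 vesicles, had the next highest ratio at 1.45 (SE 0.742). The lowest were Crem and Creb1, the cyclic AMP response factors, at -0.94 (SE 0.624) and -0.84 (SE 0.560). Without experiment 3 of both groups these ratios were nearer 0, at 0.36 for Sipa1, 0.37 for Adcy6, 0.69 for Vamp2, -0.18 for Crem and -0.18 for Creb1. With the GC correction of all samples, 24 ratios of the list were above 0 and 24 below, at a median of 0.0035. In that edgeR fit 0 of the 48 had an unadjusted p under 0.05. The difference between the aquaporins and this list was not tested.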

How the data were processed

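Chromatin of mpkCCD cells was precipitated with IgG and sequenced as 50-base reads, which BWA placed on mm10, per the labels' protocols. The protocol text names the Polr2a antibody, while the antibody label of these 6 libraries names IgG and was followed. The submitters' processing notes also name SAMtools and bedtools, without a version. The deposited count is the number of reads overlapping each transcript interval, introns included and with no strand, per the file headers. The deposited fraction is the share of interval bases with at least 1 read, per the file headers. Whether duplicates or poorly mapped reads were removed is not given in the sources used here.

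Of 33062 intervals common to the 6 libraries, 32763 (99.1%) matched a symbol in the RefSeq and GENCODE vM21 tables of GRCm38.p6, whose chromosome coordinates are those of mm10, and 32980 had a GC content. Libraries were compared in pairs by chi-square over genes of at least 40 reads, with a ratio to degrees of freedom under 1.1 taken as sampling noise. Experiments 1 and 2 of each group met this and were summed. edgeR 4.0.16 in R 4.3.3 (TMM, filterByExpr, two-sided quasi-likelihood test, Benjamini-Hochberg threshold 0.05) was fitted to all intervals with no covariate. The procedure was tested on simulated data, which does not give its power with these samples. DESeq2 1.42.0 was the other tool, and the GC correction was an offset per library from a lowess of log density on GC content. Densities were computed with pandas 2.3.3 and scipy 1.17.1 in Python 3.11.15, and Poisson intervals are at 95%.

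The genes, lists and tests were chosen with earlier results of these data known. Named besides the 10 aquaporins are Mip and Aqp12, genes within 100 kb of the cluster and the 3 genes most like Aqp2. From the list of 49, genes with an unadjusted p under 0.05 by edgeR or DESeq2 with all samples are named. So are the 2 highest and 2 lowest edgeR ratios. Pde4d is named for its call without experiment 3 of both groups, and Avpr2 as the gene that edgeR's filter left out.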

Additional observations from a re-analysis of the deposited data

How the results depend on the processing

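Over 16 alternatives, 140 of 160 aquaporin log2 ratios kept their direction, 20 reversed and 0 passed the threshold. Direction here is the sign alone, and most alternatives kept dDAVP experiment 3, so the count says little about stability. Aqp2, for example, counted as kept when it fell from 1.26 to 0.0149 (SE 0.259) with the GC offset. No alternative called an aquaporin. However, the fit of all samples and most alternatives called no interval of any gene, so this says little about the aquaporins in particular. With the GC offset the ratios of Aqp1, Aqp4, Aqp5 and Aqp6 reversed, to -0.13, 0.39, -0.31 and -0.19. Without experiment 3 of both groups Aqp1, Aqp4, Aqp5 and Aqp9 reversed, to -0.00956, 0.000488, -0.66 and 0.0606, and 1321 intervals were called, against 0 in the fit of all samples. The GC offset without dDAVP replicate 3, chosen after seeing the data, gave 2 called intervals and reversed Aqp1 (-0.0346), Aqp2 (-0.0416), Aqp4 (0.0205), Aqp5 (-0.57) and Aqp9 (0.0522). The cause of these changes was not tested. With each library left out in turn, ratios ranged from 0.22 to 1.43 for Aqp2, from -0.19 to 0.014 for Aqp4, from -0.28 to 1.17 for Aqp5 and from -0.14 to 0.0402 for Aqp9. Leaving out dDAVP replicate 3 gave the low end for Aqp2 and Aqp5 and the high end for Aqp9, and leaving out dDAVP replicate 1 the high end for Aqp4.

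Same-numbered experiments did not deviate together, with correlations of -0.25, -0.28 and -0.46 over 21373 genes, and no library correlated best with its own number. Deviations were from the mean of the 3 libraries of a group and cancel within it. The 3 correlations are therefore not separate checks, and the lack of a best match follows from their being negative. With a replicate block the Aqp2 ratio was 1.05 on summed samples and 0.84 on 6 separate libraries, and 0 intervals were called in both. With the replicate block and GC offset together, Aqp1, Aqp4, Aqp5 and Aqp6 reversed, to -0.10, 0.31, -0.38 and -0.13.

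Of 184 density and coverage values under an alternative, 164 moved by no more than 1 SD. That SD was taken over the samples of both groups together, dDAVP experiment 3 included, so it was wide for GC-rich genes. The mean density of Aqp5, for example, was 1.66 RPKM with an SD of 1.65. Its fall to 0.82 without dDAVP experiment 3 counted as within 1 SD, so the count says little about stability. The median aquaporin density over similar intervals was 1.09, and moved to 0.882 on all autosomes and 0.880 with GC content matched as well. The covered bases over an even spread moved from 0.839 to 1.01 with reads taken as 40 bases. Depth limits Aqp2, Aqp3, Aqp5, Aqp6 and Aqp8 most, since each had fewer than 25 reads in some library.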
